A study of Mus musculus with 4 samples.

Results

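The T-cell receptor complex and its proximal kinases were followed through 10 member genes of the 22911 gene symbols matched on the arrays. These were the CD3 chain genes *Cd3d*, *Cd3e* and *Cd3g*, the ζ chain gene *Cd247*, the coreceptor genes *Cd8a*, *Cd8b1* and *Cd4*, the kinase genes *Lck* and *Zap70*, and the adaptor gene *Lat*. They were listed by symbol, with earlier results of these data known. Every non-control spot whose transcript identifier mapped to one of them was used, which gave 18 probes on 1 spot each. RNA was compared between 2 sorted populations of *Bcr-Abl*+ tumors, CD8+ T cells (GFP- TCRb+ CD8+) and mesenchymal stroma cells (MSCs, GFP- CD45- Ter119- CD31-), each from Wt and *Sipa1*-/- mice. *Sipa1* encodes a Rap1 GTPase-activating protein. All mice were of strain C57BL/6Ncr, 8 weeks old according to the sample labels. Both genotypes received the same subcutaneous injection of *Bcr-Abl*+ hematopoietic progenitor cells (HPCs) in Matrigel, and tumors were taken on day 12. By the methods of the study, the HPCs were lineage-negative bone marrow cells of Wt mice transduced with a retrovirus carrying human p210 *Bcr-Abl* and GFP, so *Sipa1* was lacking in the host and not in the injected cells. The series describes 5 mice per genotype, and whether their RNA was pooled for the arrays is not given in the sources used here. Each of the 4 conditions has 1 array, so the differences below have no replicate check, no test was made and no p-value is given.

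The T-cell receptor recognizes a peptide on an MHC molecule but has no signaling tail of its own. The CD3 δ, ε and γ chains (*Cd3d*, *Cd3e*, *Cd3g*) and the ζ chain (*Cd247*) carry the tyrosine motifs that signal for it, the kinase Lck, held by the CD8 or CD4 coreceptor, phosphorylates these motifs, and the kinase Zap70 then binds them and phosphorylates the adaptor Lat, on which the downstream signaling complex assembles. In mature T cells these genes are expressed in almost every cell, and CD8+ T cells carry CD8 α (*Cd8a*) and β (*Cd8b1*) chains in place of CD4.

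The arrays were available as spot signals of 59305 non-control spots each, of which 60.3% to 65.3% were well above background and 0 were saturated. A level is given here as the log2 signal minus the 75th percentile of its array, so 0 is the 75th percentile, and a log2 ratio is a difference of 2 such levels. Among 300 probes printed on 10 spots, the median SD of the log2 signal was 0.040 to 0.045 on the 4 arrays, but 0.14 to 0.42 among the 8 to 14 of these probes with a mean level below -2, where several member probes lay on the MSC arrays. The error model of the scanner software gave an error for each log2 ratio between genotypes. For member probes that passed the flags on both arrays it was 0.20 to 0.36 in CD8+ T cells (17 probes) and 0.20 to 0.31 in MSCs (13 probes). Among the member probes that did not pass in MSCs it reached 0.74. These errors cover spots only, not mice. A probe was compared only with itself on the other arrays, since probes of different sequence differ in brightness for reasons other than RNA amount. Both *Sipa1* probes were lower with the *Sipa1*-/- label, at 3.43 against 1.39 and 5.40 against 3.73 in Wt and *Sipa1*-/- CD8+ T cells, and at 3.05 against 1.46 and 5.03 against 3.78 in MSCs.

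RefSeq start-site windows (GRCm38.p6, 250 bases before to 50 after a start) were found for 8 of the 10 members, 11 windows in all, with none for *Cd8b1* and *Cd4*. The 4 windows below are shown because the values of these genes part on the MSC arrays, *Cd3g* and *Cd3d* being higher and *Zap70* and *Lat* lower in the *Sipa1*-/- sort. The starts of *Cd3g* and *Cd3d* lie 1355 bases apart and point away from each other. Capitals mark AGGAAG or its reverse complement CTTCCT, the core of sites for ETS-family factors.
*Cd3g*, chr9:44980382-44980681, minus strand: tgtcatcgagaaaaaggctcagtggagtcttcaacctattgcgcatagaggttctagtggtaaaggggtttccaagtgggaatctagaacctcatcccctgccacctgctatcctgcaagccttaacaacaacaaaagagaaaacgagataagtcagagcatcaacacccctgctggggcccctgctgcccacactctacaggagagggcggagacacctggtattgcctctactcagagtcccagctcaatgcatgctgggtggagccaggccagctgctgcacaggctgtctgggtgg
*Cd3d*, chr9:44981536-44981835, plus strand: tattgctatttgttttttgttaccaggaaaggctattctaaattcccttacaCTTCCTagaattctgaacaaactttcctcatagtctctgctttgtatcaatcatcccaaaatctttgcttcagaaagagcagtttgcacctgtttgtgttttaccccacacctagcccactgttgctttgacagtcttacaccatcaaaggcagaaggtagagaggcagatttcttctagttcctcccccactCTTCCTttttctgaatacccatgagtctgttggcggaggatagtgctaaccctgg
*Zap70*, chr1:36761548-36761847, plus strand: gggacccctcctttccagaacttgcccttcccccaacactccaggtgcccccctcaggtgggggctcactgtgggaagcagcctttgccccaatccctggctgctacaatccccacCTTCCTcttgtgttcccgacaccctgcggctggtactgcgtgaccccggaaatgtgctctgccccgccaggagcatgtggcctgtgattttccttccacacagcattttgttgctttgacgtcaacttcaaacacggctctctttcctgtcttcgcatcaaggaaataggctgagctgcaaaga
*Lat*, chr7:126369519-126369818, minus strand: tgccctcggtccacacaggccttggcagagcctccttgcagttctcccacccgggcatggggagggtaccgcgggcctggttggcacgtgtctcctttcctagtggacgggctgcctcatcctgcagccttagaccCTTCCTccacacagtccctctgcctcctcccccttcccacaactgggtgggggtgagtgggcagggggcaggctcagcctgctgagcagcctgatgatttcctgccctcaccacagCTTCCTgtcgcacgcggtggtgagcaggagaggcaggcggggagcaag
The ETS core, searched on both strands, stood in 8 of the 11 windows (6 of the 8 genes) and in 35.4% of all 32851 windows. The E-box CAGGTG or CACCTG was in 8 of the 11 windows (6 genes) and 20.2% of all windows. The RUNX core TGTGGT or ACCACA was in 3 of the 11 (3 genes) and 16.8% of all windows. Of the 4 printed windows, that of *Cd3g* held 0 ETS cores and that of *Lat* 0 E-boxes. These counts describe letters in a window and show no binding.

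In CD8+ T cells the member genes were at nearly the same level in both genotypes. None of the 10 genes reached a 2-fold difference, where 2.66% of the 14339 genes measured were higher and 1.40% lower by at least 2-fold in *Sipa1*-/- cells. The median log2 ratio of the members was -0.01, and that of all genes was -0.02. The 17 probes that passed the flags on both arrays had ratios from -0.27 to 0.23, with 4 of them outside their own error and 0 outside double that error. The sign of 7 of the 10 genes, *Cd3d*, *Cd3g*, *Cd247*, *Cd8a*, *Cd8b1*, *Zap70* and *Lat*, depended on how the arrays were scaled.

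For *Cd3d*, the δ chain, probe A_66_P109615 was at 7.19 in Wt and 7.12 in *Sipa1*-/- CD8+ T cells, and probe A_51_P285206 at 6.71 and 6.64. *Cd3e*, the ε chain that pairs with δ and with γ, was at 6.13 and 6.22 with A_55_P2156229. With A_51_P455681 it was at 2.17 and 2.40. *Cd3g*, the γ chain, was at 5.28 in Wt and 5.29 in *Sipa1*-/- cells. The 5 CD3 chain probes thus differed by no more than 0.23 between genotypes, the largest of these being a *Cd3e* probe with an error of 0.20. *Cd8b1*, the β chain of the coreceptor, was at 7.29 and 7.41. *Cd8a*, the α chain whose protein was stained for the sort, was at 4.13 and 4.17 with A_52_P443334. Its second probe, A_52_P150547, was at 2.79 and 2.97. All 3 CD8 probes were higher by 0.04 to 0.18 in *Sipa1*-/- cells, within their errors of 0.20.

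*Lck* was at 7.23 in Wt and 7.06 in *Sipa1*-/- cells with A_55_P2155504, and at 2.99 and 2.76 with A_55_P2506985. Its gene-level ratio of -0.20 was the second lowest of the members. *Zap70* was at 6.04 and 6.07 with A_55_P1969861, and at 4.56 and 4.51 with A_55_P2153122. *Lat* was at 4.93 in both. The lowest ratio, -0.26, was that of *Cd4*. *Lck* and *Cd4* were lower in *Sipa1*-/- cells under all 8 settings, at the lowest -0.35 and -0.40.

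The ζ chain gene *Cd247* has 3 probes to different transcripts. A_55_P2487460 was at 4.30 and 4.31 in CD8+ T cells, but the scanner software marked its local background as uneven on the *Sipa1*-/- CD8+ T array and the Wt MSC array, so it is left out of the genotype ratios. A_52_P173555 was at 0.88 and 0.60, and A_55_P2212968 at -3.32 and -3.19, one lower and one higher in *Sipa1*-/- cells. *Cd4*, which a sort of CD8+ T cells should lack, had a probe at 0.73 in Wt and 0.47 in *Sipa1*-/- cells (A_55_P2013655) and another near background, at -4.83 and -5.08 (A_52_P383089). The first of these stood at 0.18 and 0.19 on the MSC arrays, hardly below its level in T cells. Among genes of the CD4+ lineage, the transcription factor gene *Zbtb7b* was at -0.62 and -0.43, *Foxp3* at -3.62 and -4.00, and *Cd40lg* was not well above background on any array, while *Gata3*, at 3.33 and 3.40, and *Cxcr5*, at 1.73 and 1.69, had signal in both sorts.

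**Figure D1:**
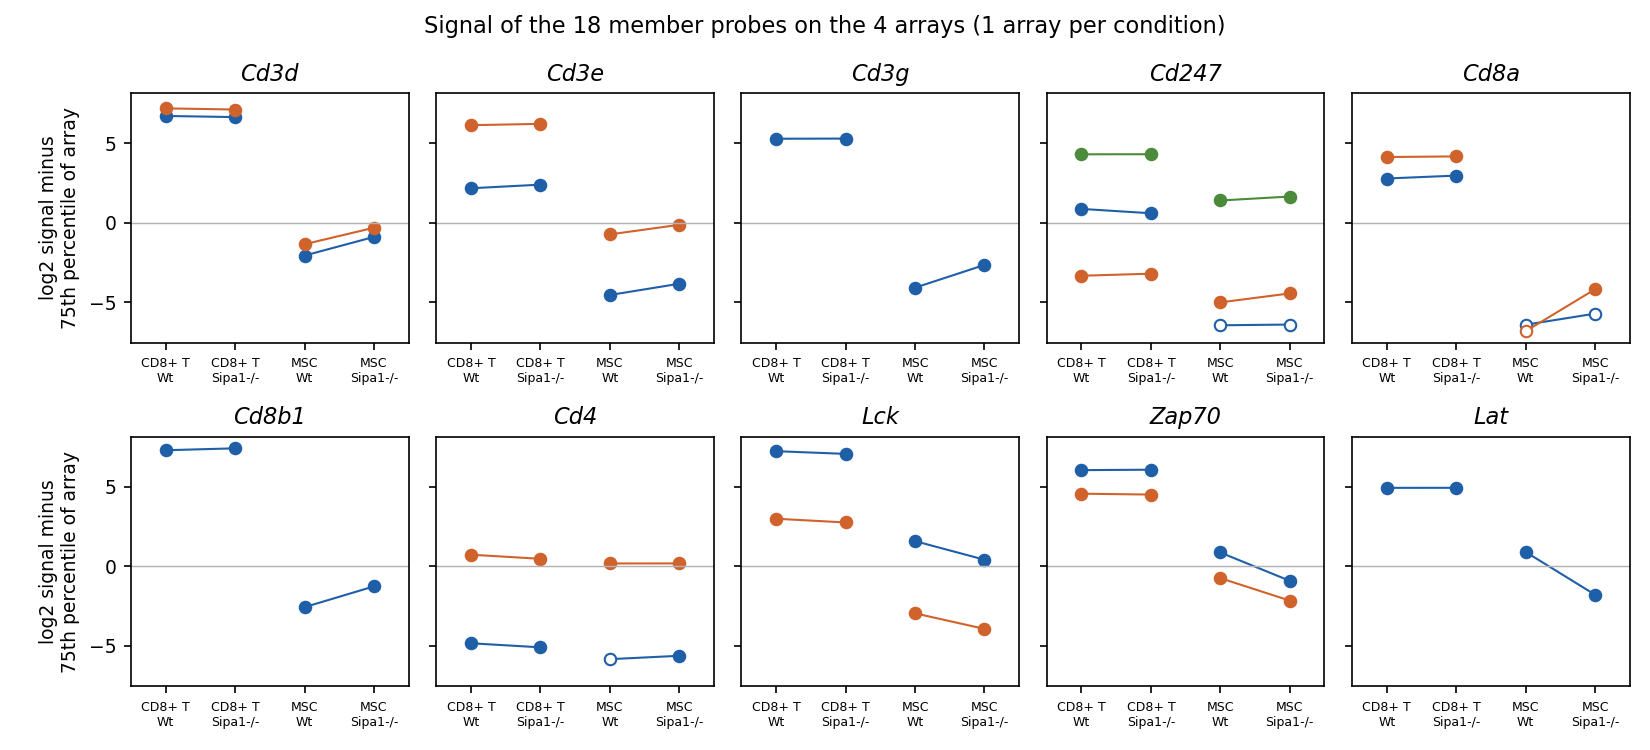
Levels of the 18 member probes (y axis, log2 signal minus the 75th percentile of the array) on the 4 arrays (x axis), 1 panel per gene and 1 color per probe, with lines joining the genotypes of a cell type and open circles for spots not well above background. The lines are flat in CD8+ T cells, whereas in MSCs those of *Cd3d*, *Cd3e*, *Cd3g* and *Cd8b1* go up and those of *Lck*, *Zap70* and *Lat* go down.

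On the MSC arrays all members but *Cd4* were at least 2-fold below their levels in CD8+ T cells, and they parted into genes that were higher and genes that were lower in the *Sipa1*-/- sort. Of the 9 genes measured, *Cd3g*, *Cd8b1* and *Cd3d* were at least 2-fold higher, *Lat*, *Zap70* and *Lck* at least 2-fold lower, and *Cd3e*, *Cd247* and *Cd4* under 2-fold. Among all 15298 genes measured, 19.3% were higher and 11.3% lower by at least 2-fold, so differences of this size were common on these arrays. The median log2 ratio was 0.56 for the members, which is the value of *Cd247*, and 0.04 for all genes. As the members parted in 2 directions, this median describes no shift common to them. Since RNA of a whole sort was measured, fewer cells of a type and less RNA per cell cannot be told apart.

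*Cd3g* went from -4.07 on the Wt to -2.64 on the *Sipa1*-/- MSC array, a log2 ratio of 1.43 with an error of 0.23. *Cd8b1* went from -2.56 to -1.26, a ratio of 1.31. *Cd3d* was at -2.05 and -0.88 with one probe (A_51_P285206) and at -1.34 and -0.31 with the other. The *Cd3e* probes were at -4.53 and -3.82 (A_51_P455681) and at -0.73 and -0.12, which gave a gene-level ratio of 0.66. All 5 CD3 chain probes and the *Cd8b1* probe were therefore higher in the *Sipa1*-/- sort, by 0.60 to 1.43. *Cd8a* gave no ratio, because neither of its probes was well above background on the Wt MSC array. A_52_P443334 was at -6.81 there and at -4.17 on the *Sipa1*-/- array, 6.22-fold higher, a value of uncertain size since the Wt signal was not well above background. A_52_P150547 was below that mark on both, at -6.40 and -5.70. For *Cd247* the single probe that passed on both arrays was at -4.99 and -4.43, a ratio of 0.56 with an error of 0.31, and the probe with uneven background was at 1.40 and 1.65. *Cd4* was at 0.18 and 0.19 with A_55_P2013655.

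The kinases and the adaptor went the other way. *Lat* was at 0.91 in Wt and at -1.78 in *Sipa1*-/- MSCs, 6.44-fold lower, and only 1.52% of all genes had a lower ratio. *Zap70* was at 0.87 and -0.91 with A_55_P1969861 and at -0.74 and -2.15 with A_55_P2153122, which gave a gene-level ratio of -1.59. *Lck* was at 1.58 and 0.42 with A_55_P2155504 and at -2.95 and -3.93 with A_55_P2506985, a gene-level ratio of -1.07. All 5 probes of these genes were lower, by 0.98 to 2.69 on the log2 scale. The signs of the CD3 chain genes, *Cd8b1*, *Lck*, *Zap70* and *Lat* held under all 8 settings, but *Cd3d* came to 0.96 with the arrays shifted by their medians and *Lck* to -0.87 with the authors' table of values, and with normexp background correction and quantile normalization together only *Zap70* and *Lat* stayed past 2-fold, at -1.32 and -2.27, with *Cd3g* at 0.55, *Cd3d* at 0.82, *Cd8b1* at 0.79 and *Lck* at -0.76.

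**Figure D2:**
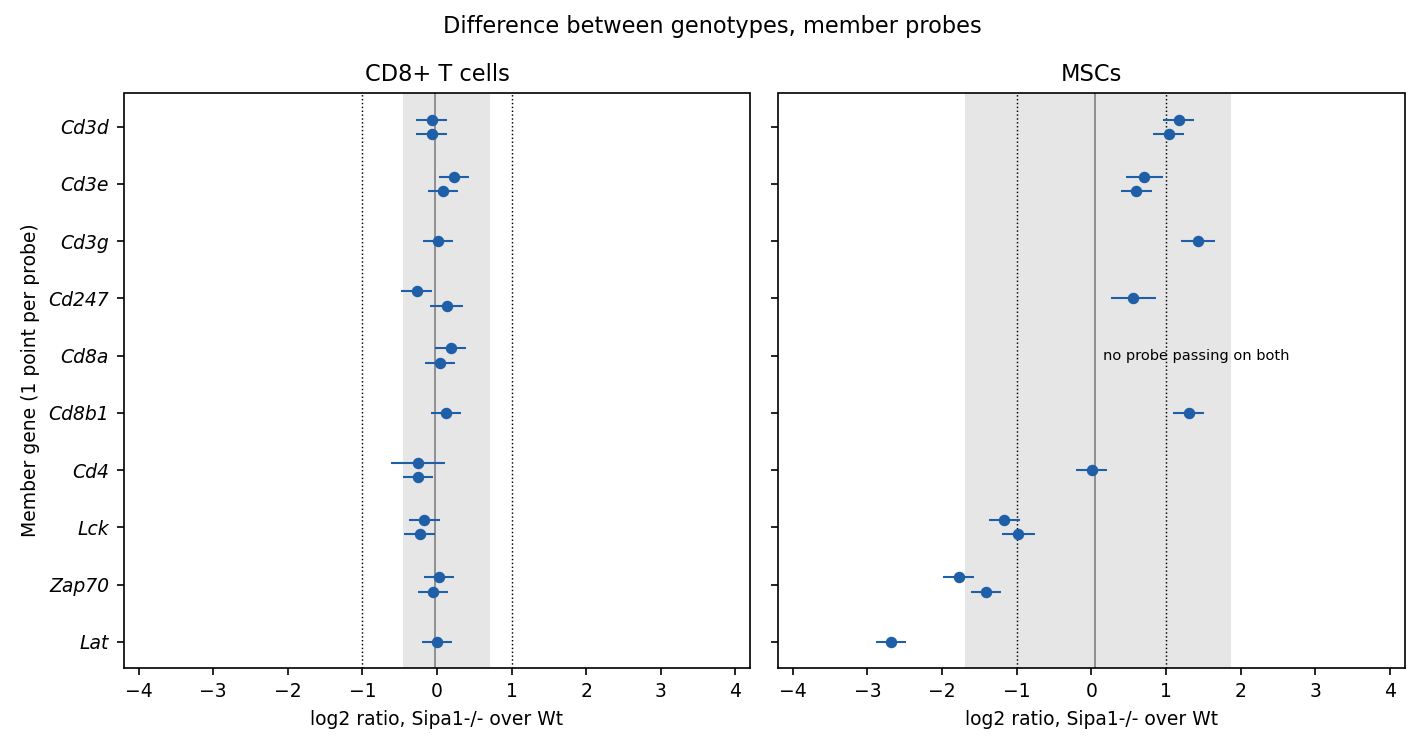
Log2 ratio of *Sipa1*-/- over Wt (x axis) for each member probe that passed the flags on both arrays (1 point per probe, bars for the scanner software's error), in CD8+ T cells and MSCs, with the span from the 5th to the 95th percentile of all genes in gray, their median as a gray line and 2-fold as dotted lines. In CD8+ T cells all points lie between -0.27 and 0.23, and in MSCs they spread from -2.69 for *Lat* to 1.43 for *Cd3g*.

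Between cell types the members were among the genes that differed most. In Wt tumors 9 of the 10 genes were at least 2-fold higher in CD8+ T cells than in MSCs, as were 13.7% of the 16377 genes compared, with a median difference of 6.29 for the members and -0.02 for all genes. In *Sipa1*-/- tumors it was again 9 of 10, against 18.8% of 16629 genes, with medians of 6.76 and 0.07. The exception was *Cd4*, at 0.77 and 0.41. The sort selected cells by CD8 and TCRb protein, so high levels of *Cd8a* and of the receptor's partner chains go with the selection. *Cd8b1* was 925-fold higher in Wt CD8+ T cells and 407-fold higher in *Sipa1*-/- CD8+ T cells, rank 2 of all genes in both genotypes. *Cd3g* was 653-fold and 245-fold higher, and *Cd3d* 401-fold and 178-fold. The Wt MSC signal of *Cd8a* was not well above background. Against it, A_52_P443334 was 1963-fold higher in Wt CD8+ T cells, a value of uncertain size. The same probe was 325-fold higher in *Sipa1*-/- CD8+ T cells, where it was well above background in both sorts. *Cd247* differed by probe in Wt tumors, from 3.19-fold with A_55_P2212968 to 159-fold with A_52_P173555. The MSC signal of the latter was not well above background.

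In *Sipa1*-/- tumors the differences of *Lck*, *Zap70* and *Lat* lay close together. Their 5 probes were higher in CD8+ T cells by 4.02 to 5.94 in Wt tumors and by 6.65 to 6.98 in *Sipa1*-/- tumors, so that the span between the lowest and the highest narrowed from 1.92 to 0.33. Those of the CD3 chains and *Cd8b1* ran from 6.70 to 9.85 in Wt tumors and from 6.22 to 8.67 in *Sipa1*-/- tumors. These 2 groups match the direction of the genotype ratios in MSCs. As levels in CD8+ T cells hardly differed between genotypes, the shift of each group follows from those ratios. *Cd247* is in neither group, although its MSC ratio, 0.56, was above 0 as well. Its 1 probe that passed on all 4 arrays was lower than both groups, at 1.67 and 1.24. These values use the same 4 arrays as the ratios between genotypes and are no second observation of them.

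**Figure D3:**
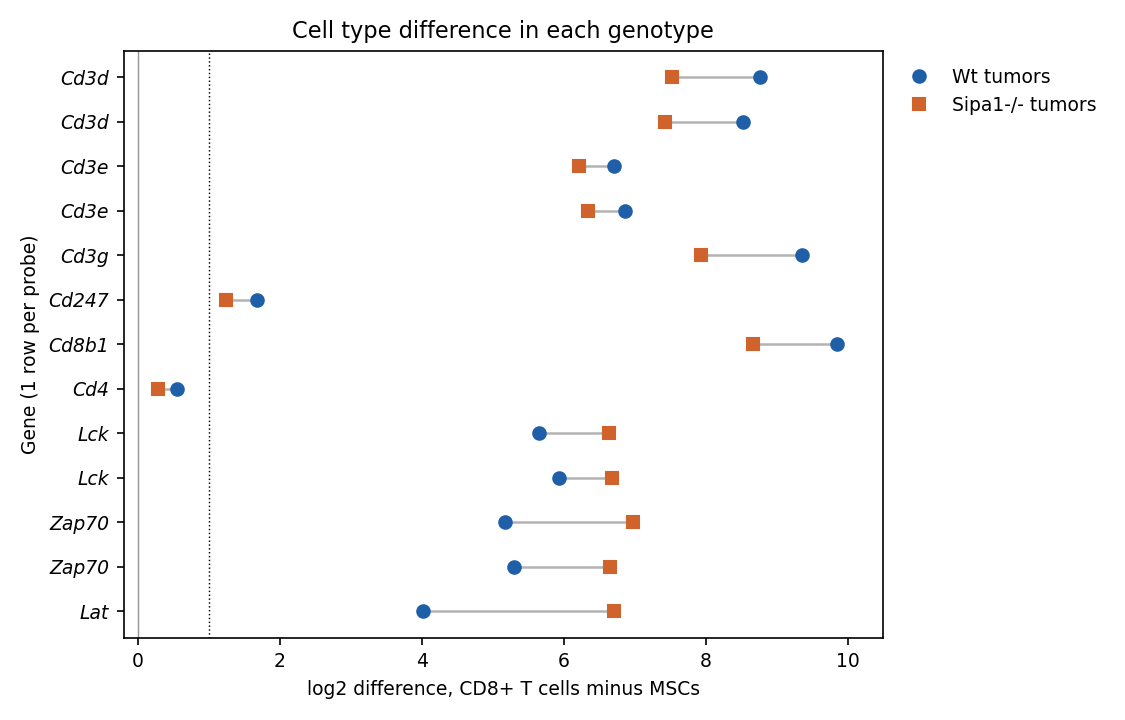
Log2 difference between CD8+ T cells and MSCs (x axis) for the 13 member probes that passed the flags on all 4 arrays (1 row per probe), with circles for Wt and squares for *Sipa1*-/- tumors, a dotted line at 2-fold and a gray line joining the genotypes. The squares of *Lck*, *Zap70* and *Lat* lie between 6.65 and 6.98, to the right of their circles, and those of the CD3 chains and *Cd8b1* to the left of theirs.

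The rest of the pathway was read from 55 genes of T-cell receptor signaling, comprising 21 adaptors, 20 enzymes and 14 genes that mostly restrain the signal. In CD8+ T cells 53 were measured and 0 passed 2-fold, where 2.66% of all genes were higher and 1.40% lower by that much. Of the 53, 32 were above and 21 below 0, with a median of 0.02, and 46.1% of all genes were above 0. The nearest to the threshold was *Dok2*, an adaptor that dampens tyrosine kinase signaling, at 4.81 in Wt and 5.80 in *Sipa1*-/- cells. Of 10 costimulation genes measured there, 0 passed 2-fold. With such low shares among all genes, counts of 0 do not set either list apart. Named for their signal were *Thy1*, a surface glycoprotein of T cells and fibroblasts, at 7.37 and 7.46, the adhesion receptor gene *Cd2* at 6.26 and 6.25, and *Cd6*, a surface receptor of T cells, at 6.07 and 6.43. None of the 7 genes of the receptor's own constant chains matched a probe.

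In MSCs 50 of the 55 signaling genes were measured, and 19 were at least 2-fold lower and 0 at least 2-fold higher in the *Sipa1*-/- sort, with a median of -0.44, where 11.3% of all genes were lower and 19.3% higher by that much. Of the 50, 33 were below and 17 above 0, where 51.8% of all genes were above 0, and the highest ratio was that of *Cd6*, at 0.96. *Sh2d1a*, at -6.66 and -4.99, gave no ratio because it was not well above background on the Wt MSC array. By role, 7 of 17 adaptors, 7 of 19 enzymes and 5 of 14 restraining genes were among the 19. *Sit1*, a transmembrane adaptor, went from 1.83 to -2.50. *Tespa1*, an adaptor of thymocyte development, went from -0.20 to -4.23, *Rhoh*, a GTPase needed for Zap70 function, from 3.76 to 0.18, and *Tbc1d10c*, a restraining gene, from 3.80 to 0.24. Several of these genes are known in B cells as well as T cells. Of 7 costimulation genes, *Cd2* was lower, from 4.08 to 0.56, and 4 were at least 2-fold higher (19.3% of all genes), namely *Tnfrsf9*, *Icos*, *Cd28* and *Thy1*. *Tnfrsf9*, which encodes the receptor 4-1BB, had the largest ratio, at 3.96. *Icos* went from -3.56 to -1.87 and *Cd28* from -3.98 to -2.79. *Thy1* went from 5.41 to 6.55. The MSC sort excluded CD45, and *Ptprc*, its gene, was at 0.76 and -0.55.

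Marker genes of other cells moved on the same arrays, where 19.3% of all genes were higher and 11.3% lower by at least 2-fold in *Sipa1*-/- MSCs. Of 13 genes of the B-cell antigen receptor and B lineage, 12 were at least 2-fold lower in *Sipa1*-/- MSCs, with a median of -4.12. Their summed signal, in multiples of the 75th percentile, was 495 in Wt and 34.4 in *Sipa1*-/- MSCs, and 36.9 and 31.2 in the CD8+ T sorts, with 13 of 13 genes well above background on every array. *Vpreb1*, the surrogate light chain of the pre-B receptor, went from 7.57 to 3.45 in MSCs, *Cd79b* from 6.65 to 2.49 and *Blnk* from 6.50 to 2.28. *Syk*, the kinase related to Zap70, went from 2.29 to -0.70. *Lat* and *Zap70* are known to be expressed in early B-lineage cells too. The part of B-lineage RNA in the values of *Lck*, *Zap70* and *Lat* was not tested. Of immature thymocyte genes, *Ptcra*, which encodes the pre-T-cell receptor α chain, was not well above background on any array, while 3 of 4 measured genes of that list were at least 2-fold lower in *Sipa1*-/- MSCs, among them *Dntt*, from 4.54 to -0.17, which B-lineage progenitors also express. Of 7 CD4+ lineage genes measured in MSCs, 3 were at least 2-fold higher with *Sipa1*-/- (19.3% of all genes), among them *Gata3*, from -2.24 to -0.87, and *Zbtb7b*, from -1.02 to 0.21, and 1, *Cxcr5*, was lower, from 2.22 to -1.45. Fibroblast genes marked the MSC sorts, with *Col1a2* at 8.56 and 8.91 and *Dcn* at 7.71 and 8.57. Of 9 measured, 5 were at least 2-fold higher in the *Sipa1*-/- sort (19.3% of all genes), with a median of 1.14. Of 9 macrophage genes, 8 were above 0 (51.8% of all genes) and 4 at least 2-fold higher (19.3% of all genes), with a median of 0.99. Although Ter119 and CD45 were gated out, the hemoglobin gene *Hba-a1* was at 8.29 and 8.39 and the granulocyte gene *S100a9* at 8.40 and 8.50. Of 8 granulocyte genes, 2 were at least 2-fold higher, *Mpo* (log2 ratio 2.13) and *Elane* (1.57), and 0 lower, a count near the 19.3% of all genes. The part of T-cell RNA in the MSC values of the CD3 chains was not tested.

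In the CD8+ T sort, 9 of 10 fibroblast genes were at least 2-fold higher in *Sipa1*-/- cells, against 2.66% of all genes, with a median of 1.68. The exception was *Thy1*, at 0.09, and without it the summed signal of the other 9 was 41.3 in Wt and 126 in *Sipa1*-/- cells. *Col1a2*, *Dcn* and *Col3a1*, which encode matrix proteins, were at 4.24 and 5.77, 2.63 and 4.31, and 2.93 and 4.68. Granulocyte genes were at least 2-fold lower for 5 of 8, against 1.40% of all genes, with *S100a9* at 8.38 and 7.33, and erythroid genes for 4 of 5, with *Hba-a1* at 3.03 and 1.93. Of 13 B-lineage genes, 2 were lower by that much, among them *Vpreb1* at 1.96 and -0.08, and 11 were under 2-fold. Of 11 genes of γδ T, NK and innate-like T cells, 2 were above 0 (46.1% of all genes) and 9 below, with a median of -0.37. Of these only *Klrb1c* passed 2-fold, at -0.10 and -2.12. Of 9 dendritic genes 1 was at least 2-fold higher, *Xcr1* at -3.21 and -1.09. Of 9 macrophage genes 1 was at least 2-fold lower, *Cd14* at 3.23 and 0.80. The members differed by less than 2-fold beside these lists, and the part of other cells in their levels was not tested.

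**Figure D4:**
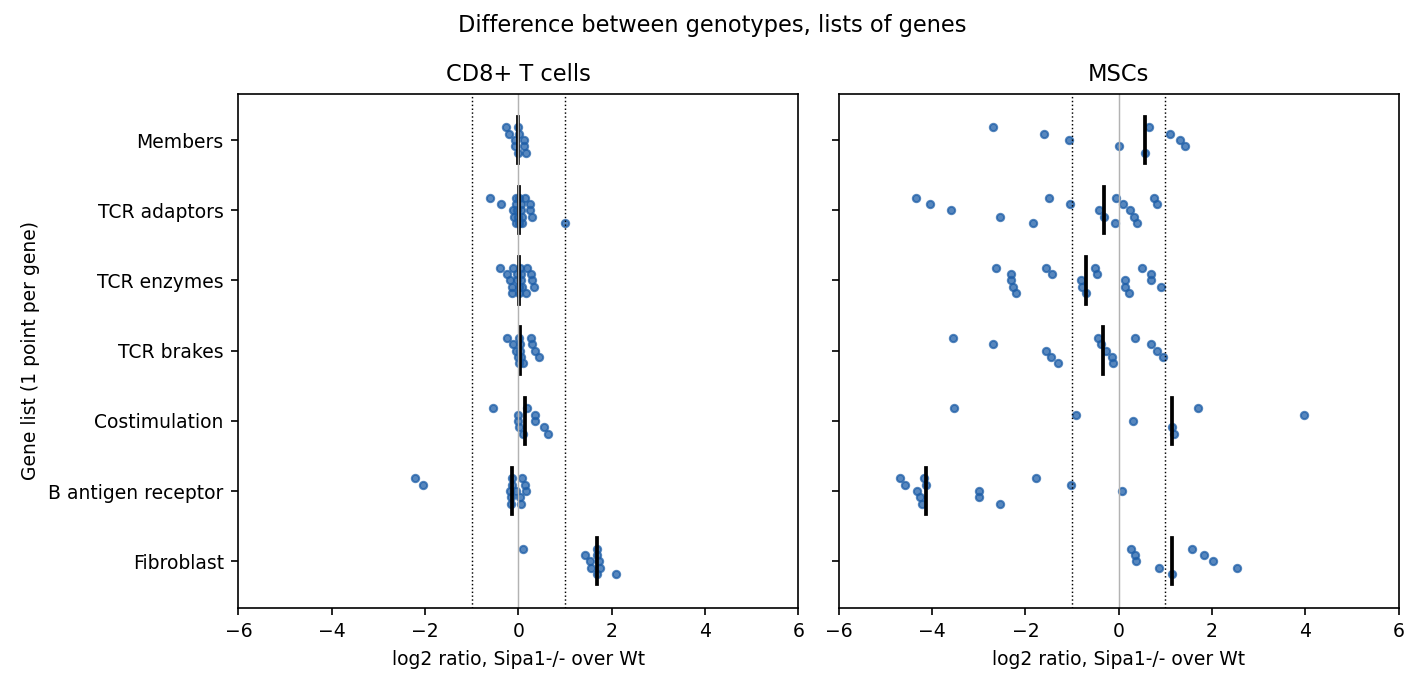
Log2 ratio of *Sipa1*-/- over Wt (x axis) for the genes of 7 lists (1 point per gene, a black bar for the median, dotted lines at 2-fold) in CD8+ T cells and MSCs. In CD8+ T cells the members and the signaling lists lie near 0, and the fibroblast list has a median of 1.68. In MSCs the signaling lists reach from -4.33 (*Sit1*) to 0.96 (*Cd6*), and the B-cell antigen receptor list has a median of -4.12.

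The pattern of the CD3 chains over the 4 arrays, each gene centered on its own mean, was 3.86 and 3.89 in Wt and *Sipa1*-/- CD8+ T cells and -4.40 and -3.34 in MSCs. It was compared with 14336 genes that had a probe passing the flags on both CD8+ T arrays, whatever their signal on the MSC arrays. Those most like the CD3 pattern by root mean square difference included *Crtam* (0.08), *Ms4a4b* (0.10), *Cd27* (0.14), *Cxcr3* (0.14), *Xcl1* (0.19), *Sh2d1a* (0.22) and *Cd226* (0.23). *Cd27* and *Sh2d1a* were not well above background on the Wt MSC array, nor *Cd226* on either MSC array, so their likeness rests in part on background signal, as does that of *Cd8a*. *Crtam*, a receptor of activated CD8+ T cells and NK cells, was at 3.24 and 3.14 in CD8+ T cells and at -4.97 and -3.89 in MSCs. *Cxcr3*, a chemokine receptor gene, was at 5.16, 5.08, -2.87 and -1.83 in the same order. Of the other members, *Cd8b1* held rank 49, *Cd8a* 51, *Lck* 85, *Zap70* 109, *Cd247* 191, *Lat* 198 and *Cd4* 3743. Likeness over 4 points rests mostly on the difference between cell types.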

How the data were processed

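Per the file headers, the deposited scanner values are Cy3 spot intensities of one-color Agilent SurePrint G3 Mouse GE v2 arrays, background-subtracted by the authors' Feature Extraction software (version 12.0.3.1 in the file headers, 9.1 in the submitters' processing notes) and not normalized between arrays. The authors' table of values holds the same intensities times 1 constant per array (0.941 to 1.34, column medians 25.5 to 52.0). All arrays shared 1 slide and 1 scan.

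The log2 intensity minus the array's 75th percentile was used. Genotype ratios needed the study's flags (not saturated, uniform spot and background, well above background) on both arrays. Cell type differences needed them on 1. A signal not well above background was then used as it stood, or raised to the array's lowest well-above-background signal if below it. Such a difference is approximate and no strict bound. Probes of a gene were averaged. Identifiers were matched to RefSeq (GRCm38.p6) for 57.6% of spots. Named genes were all members, *Sipa1*, up to 5 signaling or costimulation genes per direction past 2-fold, the 3 brightest in CD8+ T cells, the brightest markers of lists used, and the 8 most like CD3, of which 1 is not reported here. *Dok2*, *Foxp3*, *Cd40lg*, *Ptprc*, *Syk*, *Ptcra*, *Mpo*, *Elane*, *Klrb1c*, *Xcr1* and *Cd14* were added after their values were seen. The members and lists were chosen with earlier results of these data known. On simulated data with little noise and planted changes well past 2-fold, the ratio code recovered all of them. That checks the code only, since dim probes and ratios near 2-fold were not tried. Scripts ran in R 4.3.3 with limma 3.58.1 and in Python 3.11.15 with pandas 2.3.3 and numpy 2.4.6. Alternatives were median shift, quantile normalization, the authors' table, normexp (offset 50, on the median spot signal) with quantile normalization, no flags, the other flag rule and the brightest probe.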

Additional observations from a re-analysis of the deposited data

Results flagged for a closer look

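The genotype ratios of *Cd3d* and *Cd247* pointed in opposite directions in the 2 cell types. *Cd3d* had a log2 ratio of -0.07 in CD8+ T cells and 1.10 in MSCs, and *Cd247* one of -0.07 and 0.56. With 1 array per condition the difference was not tested. Both values in CD8+ T cells were smaller than the error of a single probe and turned sign with the scaling, from -0.22 to 0.08 for *Cd3d* and from -0.27 to 0.06 for *Cd247* over 8 settings.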

How the results depend on the processing

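No paired analysis was possible because the design holds a single array for every cell type and genotype. The median log2 ratio of the members in CD8+ T cells went from -0.01 to -0.15 with the median shift, 0.073 with quantile normalization, 0.13 with the authors' table and 0.065 with normexp, and in MSCs from 0.56 to 0.42, 0.42, 0.77 and 0.069, and to 0.47 with no flags. For the signaling genes it went from 0.02 to -0.13 with the median shift and 0.15 with the authors' table in CD8+ T cells, and in MSCs from -0.44 to -0.58 with the median shift, -0.53 with quantile normalization, -0.23 with the authors' table, -0.26 with normexp and -0.38 with no flags. The members' median difference between cell types in Wt tumors went from 6.29 to 6.52, 6.11, 5.83 and 5.28 with the 4 scalings in the order first given, and to 5.79 with flags on both arrays. In *Sipa1*-/- tumors it went from 6.76 to 6.99 with the median shift, 6.24 with the authors' table, 6.16 with normexp and 6.84 with the brightest probe. Members past 2-fold in MSCs numbered 6, and 5 with the median shift or the authors' table, 7 with either looser flag rule and 2 with normexp, and the cause was not tested. In CD8+ T cells the count was 0 under all 8 settings.

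The median shift moved the median of all genes by -0.15 in CD8+ T cells and -0.14 in MSCs, and by 0.23 and 0.22 between cell types in Wt and *Sipa1*-/- tumors. The authors' table moved it by 0.13, 0.21, -0.45 and -0.53. Of genes past 2-fold in CD8+ T cells 65.5% were higher in *Sipa1*-/- cells, but 52.6% with the median shift, 76.4% with the authors' table and 50.3% with normexp. In MSCs the share was 63.1%, and 54.1% with the median shift and 74.1% with the authors' table. Between cell types the share higher in CD8+ T cells was 37.0% in Wt and 39.8% in *Sipa1*-/- tumors, and 47.0% and 49.3% with the median shift and 22.0% and 21.7% with the authors' table. Signal over background limits the MSC values, where some probes of *Cd8a*, *Cd247* and *Cd4* were not well above background.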
